A study of Mus musculus with 8 samples.

Results

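Myct1, Cd93, She, Fgd5, Egfl7, Lrrc32, Ushbp1, Cyyr1, Ggta1 and Tmem47 are 10 genes known from vascular endothelium that were read at a low level, or not at all, in liver label-retaining cells (LLRCs) and more often in the non-LRC biliary cells sorted beside them. They were picked from the 46603 rows of the gene count table for low or no counts in the 4 LLRC libraries against the 4 non-LRC libraries. The values of both groups were therefore used to choose each gene, and they are given as a description with no test. Comparisons among the 10 genes, and between mice, are built from these same values and are descriptions too. The choice did not use how their paralogs and binding partners were read. The list of these relatives was, however, drawn up with earlier results of the data known.

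RNA-seq libraries were made from the livers of 4 mice, JV602, JV621, JV624 and JV6314, with 1 LLRC and 1 non-LRC library from each mouse. All mice were heterozygous for R26rtTA, a doxycycline-dependent activator in the ubiquitously active Rosa26 locus, and for H2B-EGFP, a green fluorescent histone that the activator switches on and that is diluted at each cell division. All received doxycycline from birth to postnatal day 5 and were analysed without further doxycycline at 8 weeks of age, so both groups share the transgenes and the pulse. LLRCs were EGFP+ EpCAM+ CD45- cells and non-LRC cells were EGFP- EpCAM+ CD45- cells of the non-parenchymal fraction. The driver is not specific to bile ducts, the transgene is also active in blood cells without doxycycline, and the mice were of mixed background, which limits both groups as a model of cholangiocytes.

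Endothelial cells line the blood vessels and, in liver, the sinusoids, and they share a programme of junction proteins, receptors, secreted matrix factors and signalling adaptors. Several of the 10 genes belong to it with a defined task. Cd93 is a lectin-like receptor, Egfl7 is a secreted matrix protein, Fgd5 activates the GTPase Cdc42, Lrrc32 (also called GARP) holds latent TGF-beta at the cell surface, and Ggta1 makes the alpha-galactose sugar that human cells lack. Myct1 and Tmem47 are membrane proteins, She is an adaptor with an SH2 domain, and Ushbp1 and Cyyr1 are less well described. Promoters of endothelial genes often carry the GGAA core that ETS transcription factors bind.

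The libraries held 7860021 to 9851819 counted reads in the LLRC group and 4670132 to 8056103 in the non-LRC group, and values below are counts or TMM-normalised CPM, the reads of a gene scaled to a common library size. Lists of 4 values follow the order JV602, JV621, JV624 and JV6314. A floor of 3 counts corresponded to 0.289 to 0.623 CPM. Epcam, the surface marker of the sort, was read at 544 to 647 CPM in LLRC and 430 to 761 CPM in non-LRC libraries. Ptprc, which encodes CD45, stayed at or below 6.51 CPM, with 112 counts over the LLRC and 7 over the non-LRC libraries. Several libraries stood apart. The LLRC library of JV621 held 120 counts of Xist against 0 in each of the other 7 libraries, and it was also the LLRC library with the highest CPM of 7 of the 10 genes. Markers of other leukocytes, mostly S100a8, summed to 93.3 CPM in the LLRC and 574.7 CPM in the non-LRC library of JV621, against at most 6.62 CPM in the other libraries. The non-LRC library of JV621 had the fewest genes detected, 14234, and the non-LRC library of JV6314 held 2111 CPM of pancreatic acinar genes against 2.12 to 23.4 CPM in the other libraries.

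The promoters are shown because genes that share a cell type may share regulatory letters there. Of the 10 genes, 8 had a promoter in the RefSeq table for GRCm38.p6, with 10 start sites among them, and Cd93 and Lrrc32 had none. AGGAAG, a motif with the ETS core, was searched on both strands in the 250 bases before each start and found for 5 of the 8 genes (Fgd5, Egfl7, Ushbp1, Cyyr1 and Ggta1), against 32.3% of 27025 genes with a promoter. All 250 bases of the Cyyr1 window and 87 of the Fgd5 window lie in annotated exons, the Cyyr1 match among them. ACAGGAA, a joint FOX and ETS motif that can overlap AGGAAG, was found for Egfl7 and Ushbp1, against 8.13% of genes. The stretch from base -150 to base -11 is printed below for 4 genes, 5′ to 3′ on the strand of the gene. It lies at chr10:5593578-5593717 (+) for Myct1, at chr2:26583715-26583854 (+) for the start of Egfl7 that is the second of 3, at chr8:71395812-71395951 (-) for Ushbp1 and at chr2:35461460-35461599 (-) for Ggta1, and none of these stretches overlaps an annotated exon. Capitals mark the motifs with the ETS core or their reverse complements, and in Myct1 the GATA motif AGATAA.
Myct1: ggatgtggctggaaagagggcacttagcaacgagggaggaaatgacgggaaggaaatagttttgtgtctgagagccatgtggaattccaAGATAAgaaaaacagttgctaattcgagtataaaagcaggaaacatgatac
Egfl7: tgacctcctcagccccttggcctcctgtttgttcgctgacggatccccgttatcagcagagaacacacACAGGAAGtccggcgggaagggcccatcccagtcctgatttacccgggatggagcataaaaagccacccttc
Ushbp1: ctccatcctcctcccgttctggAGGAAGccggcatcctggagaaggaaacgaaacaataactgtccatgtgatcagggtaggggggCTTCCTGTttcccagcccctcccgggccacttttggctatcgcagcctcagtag
Ggta1: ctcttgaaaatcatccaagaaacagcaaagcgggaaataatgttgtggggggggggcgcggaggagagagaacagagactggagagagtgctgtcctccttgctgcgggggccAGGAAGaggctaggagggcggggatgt
Egfl7 and Ushbp1 shared the run of letters ACAGGAAG, which in Ushbp1 stood on the opposite strand as CTTCCTGT. AGATAA was found in 1 of the 8 genes, Myct1, against 11.4% of all genes. The KLF motif CACCC was found for 4 genes (She, Egfl7, Cyyr1 and Tmem47) against 54.5%, while 0 of the 8 held another ETS motif, CCGGAA, against 13.6% of all genes. The SOX motif ACAATG was likewise found for 0 of the 8 against 12.2% of all genes, and the FOX motif GTAAACA for 0 against 3.54%. These matches describe letters in a window, and no binding was measured.

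Cd93, a C-type lectin-like transmembrane receptor of endothelium (chr2:148436640-148443563, minus strand, GRCm38), had LLRC counts of 0, 5, 0 and 1. The non-LRC counts from these mice were 19, 181, 35 and 337, or 2.36, 37.6, 5.49 and 66.1 CPM. The groups did not overlap, but the non-LRC libraries fell apart into a high pair, JV621 and JV6314, and a low pair, JV602 and JV624. The non-LRC mean was 27.9 ± 30.0 CPM (SD, n = 4), with an SD as large as the mean, and it was 15.1 CPM without JV6314. The LLRC mean was 0.175 ± 0.280 CPM (SD, n = 4) and 0.0368 CPM without JV621.

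Lrrc32, the docking receptor for latent TGF-beta (chr7:98489283-98502181, plus strand), had LLRC counts of 1, 1, 0 and 2 and non-LRC counts of 13, 38, 31 and 74. Every LLRC library thus lay below the floor of 3 counts and every non-LRC library above it. The non-LRC level was 7.22 ± 5.49 CPM (SD, n = 4), highest in JV6314 at 14.5 CPM, and 4.79 CPM without that library. The LLRC mean of 0.109 ± 0.0905 CPM (SD, n = 4) became 0.0713 CPM without JV6314.

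Myct1, a small membrane protein of endothelium named as a target of Myc (chr10:5593775-5606904, plus strand), had LLRC counts of 1, 3, 0 and 3. Its non-LRC counts were 119, 154, 39 and 152, or 14.8, 32.0, 6.12 and 29.8 CPM. It was 1 of the 2 genes that were not lowest in the non-LRC library of JV602, and its lowest non-LRC value came from JV624. The LLRC mean was 0.195 ± 0.174 CPM and the non-LRC mean 20.7 ± 12.3 CPM (SD, n = 4 each).

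Tmem47, a junctional membrane protein related to the PMP22 and claudin families (chrX:81070698-81097872, plus strand), was the most abundant of the 10 in the non-LRC libraries. Its LLRC counts were 0, 68, 50 and 29 and its non-LRC counts 277, 1287, 310 and 555. In CPM the non-LRC values were 34.5, 267.1, 48.6 and 108.8, and the LLRC values 0, 7.99, 7.31 and 3.20. Again the groups did not overlap, and the absence of reads in the LLRC library of JV602 contrasted with 50 and 68 counts in JV624 and JV621. The mean of 114.8 ± 106.6 CPM (SD, n = 4) in non-LRC cells was 64.0 CPM without JV621. Of its exon bases 11.5% are shared with Gm26775, a transcript on the opposite strand that held 1 count over all 8 libraries, and the unstranded counting leaves reads there unassigned.

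Egfl7, a secreted matrix protein of vessels (chr2:26580014-26593120, plus strand), was the exception among the 10 because it was read in every LLRC library. Its counts there were 84, 78, 63 and 67, or 8.09, 9.17, 9.21 and 7.39 CPM, a mean of 8.47 ± 0.882 CPM (SD, n = 4). Its non-LRC counts were 175, 306, 237 and 303, or 21.8, 63.5, 37.2 and 59.4 CPM, a mean of 45.5 ± 19.6 CPM (SD, n = 4). The lowest non-LRC value lay above the highest LLRC value. Relative to the mean, these LLRC values lay closer together than those of any other of the 10 genes. The gene shares 11.2% of its exon bases with other genes, among them Gm20532, Mir126a and Mir126b, which were listed at 0 in all libraries. Reads in shared bases are left unassigned, so the microRNA genes, which lie wholly in Egfl7 exons, could only be listed at 0. Agpat2, which overlaps it on the opposite strand, had 108 to 182 counts in the LLRC and 57 to 184 in the non-LRC libraries.

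The signalling adaptors showed the same low LLRC level with different patterns between mice. She, an SH2 domain adaptor (chr3:89831370-89858834, plus strand), had LLRC counts of 0, 5, 4 and 0 and non-LRC counts of 85, 155, 121 and 37. Its non-LRC mean was 17.2 ± 11.1 CPM and its LLRC mean 0.293 ± 0.338 CPM (SD, n = 4 each), the latter 0.195 CPM without JV621. The lowest non-LRC library for She was JV6314, which was the highest for Cd93 and Lrrc32.

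Fgd5, an exchange factor for Cdc42 (chr6:91978878-92076004, plus strand), was counted 0, 1, 0 and 0 times in LLRCs and 1, 10, 113 and 34 times in non-LRC cells. It was read mainly in JV624, which was the highest non-LRC library for no other of the 10 genes. Without JV624 its non-LRC mean of 6.65 ± 7.88 CPM (SD, n = 4) became 2.96 CPM. The groups were separated by scaling alone, since the lowest non-LRC value (0.124 CPM) and the highest LLRC value (0.118 CPM) are each 1 count. Fgd5 was also the only one of the 10 that did not pass the filter on low counts.

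Ushbp1, named as a binding protein of harmonin (chr8:71384272-71395802, minus strand), had LLRC counts of 15, 5, 6 and 0 and non-LRC counts of 20, 66, 32 and 62. In JV602 the values lay closest, with 1.45 CPM for the LLRC and 2.49 CPM for the non-LRC library. The means were 0.727 ± 0.602 and 8.34 ± 5.43 CPM (SD, n = 4 each), with no overlap.

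Cyyr1, a cysteine and tyrosine rich membrane protein (chr16:85421533-85553397, minus strand), was the gene whose groups overlapped. The LLRC reads numbered 0, 39, 0 and 0 and the non-LRC reads 0, 122, 65 and 141. Mouse JV602 thus gave no read in either library, and the LLRC library of JV621 gave 4.58 CPM. The LLRC mean of 1.15 ± 2.29 CPM (SD, n = 4) was 0 without JV621, and the non-LRC mean was 15.8 ± 13.1 CPM (SD, n = 4). The gene shares 1.86% of its exon bases with Gm2541, which had 42 to 73 counts in the LLRC and 18 to 48 in the non-LRC libraries.

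Ggta1, the enzyme of alpha-galactose synthesis (chr2:35400179-35463231, minus strand), was counted 0, 9, 0 and 0 times in LLRCs and 56, 104, 88 and 75 times in non-LRC cells. All its LLRC reads came from JV621, so that the mean of 0.264 ± 0.529 CPM (SD, n = 4) was 0 without that library. The non-LRC mean of 14.3 ± 5.98 CPM (SD, n = 4) had a small spread for these genes.

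**Figure D1:**
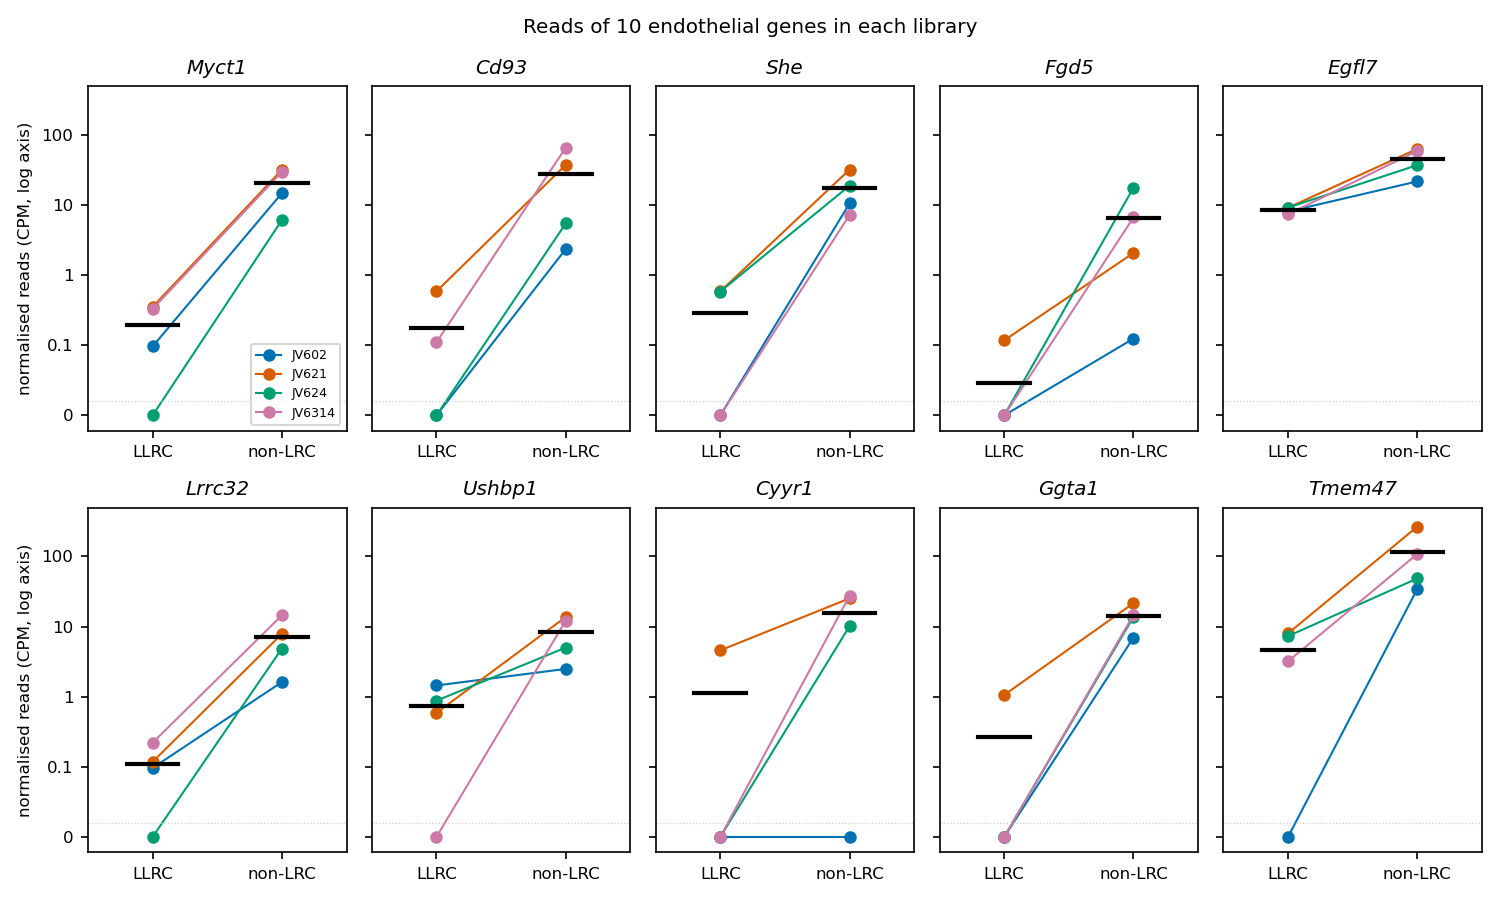
CPM of each of the 10 genes in the LLRC and the non-LRC library of each mouse, on a log axis on which 0 is drawn below the dotted line. Points of a mouse are joined and black bars are group means (n = 4). Egfl7 is above 7 CPM in all LLRC libraries, most other genes lie near 0 there, and Cyyr1 is at 0 in both libraries of JV602.

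By the pooled counts over the group totals, the size of the difference ranged as follows. The non-LRC to LLRC ratio was 5.00 for Egfl7 (exact 95% interval 4.39 to 5.72), 9.90 for Ushbp1 (6.54 to 15.6) and 12.0 for Cyyr1 (8.61 to 17.2). It was 23.6 for Tmem47 (20.002 to 28.1), 51.3 for Ggta1 (26.7 to 113.3), 55.8 for Lrrc32 (21.4 to 207.3) and 63.2 for She (33.0 to 139.3). Myct1 had a ratio of 94.8 (45.6 to 237.1), Cd93 of 136.3 (62.3 to 373.1), and Fgd5 of 226.0 (40.0 to 8981) on 1 LLRC read. These intervals cover counting error only, not the spread between mice. Among the 9 genes fitted the log2 fold changes ran from -2.42 for Egfl7 to -7.19 for Cd93. No difference between the genes was tested, so the order of the ratios is a description only. Ratios with 1 library left out were chosen after seeing the data. All LLRC reads of Cyyr1, Ggta1 and Fgd5 came from JV621, and without that LLRC library the ratio against a floor of 3 counts over the other LLRC libraries was at least 118.1 for Cyyr1, 116.3 for Ggta1 and 56.9 for Fgd5. She then had a ratio of 107.5 (41.7 to 396.5), and Cd93 of 618.0 (110.5 to 24453) on 1 LLRC read. Leaving out a non-LRC library lowered some ratios. Without JV621 Tmem47 had a ratio of 13.9 (11.7 to 16.6), without JV6314 Cd93 had 70.9 (32.1 to 195.1) and Lrrc32 37.1 (13.9 to 139.4), and without JV624 Fgd5 had 87.2 (14.9 to 3520). Without the LLRC library of JV602 the ratio of Ushbp1 was 16.4 (8.96 to 33.5).

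The non-LRC value was above the LLRC value of the same mouse for 10 of 10 genes in JV621, JV624 and JV6314 and for 9 of 10 in JV602, where Cyyr1 was 0 in both. All 4 non-LRC libraries lay above all 4 LLRC libraries for 9 of the 10 genes, which is what the choice of genes favours. Fgd5 is among the 9 by scaling alone, and it is not one of the 13605 genes tested, which hold 9 of the 10 genes, 8 of them separated. Across all genes tested, 1.91% showed this separation in the same direction and 2.15% in the opposite direction. In these bulk samples fewer endothelial cells and less RNA of these genes per cell cannot be told apart.

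Levels of different genes were compared per kilobase of exon. In the non-LRC cells Tmem47 had the highest level, 28.5 CPM per kb, and Egfl7 the next, 12.7 CPM per kb, and this order held in each of the 4 libraries. Myct1 (7.27 CPM per kb), Cd93 (4.18), Ggta1 (3.03), She (2.39), Cyyr1 (1.78), Lrrc32 (1.54), Ushbp1 (1.29) and Fgd5 (1.06) followed by mean, but their order changed between libraries. Myct1 ranged from the third to the sixth place, Cd93 from the fourth to the ninth and Fgd5 from the fourth to the tenth, so that neighbours in this order did not differ beyond their spread.

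In the LLRC cells Egfl7 ranked first in all 4 libraries. It made up 89.0%, 44.8%, 55.9% and 67.9% of the reads per kb of the 10 genes in the 4 mice, against 15.2% to 28.2% in the non-LRC libraries. The share of Tmem47 was 0%, 34.8%, 39.4% and 26.2% in LLRC and 35.8%, 56.7%, 32.9% and 35.0% in non-LRC libraries, so that it was lower in LLRCs in 3 of the 4 mice, higher in JV624, and overlapped between the groups. The LLRC shares rest on 101 to 214 reads of the 10 genes per library, against 765 to 2423 in the non-LRC libraries.

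**Figure D2:**
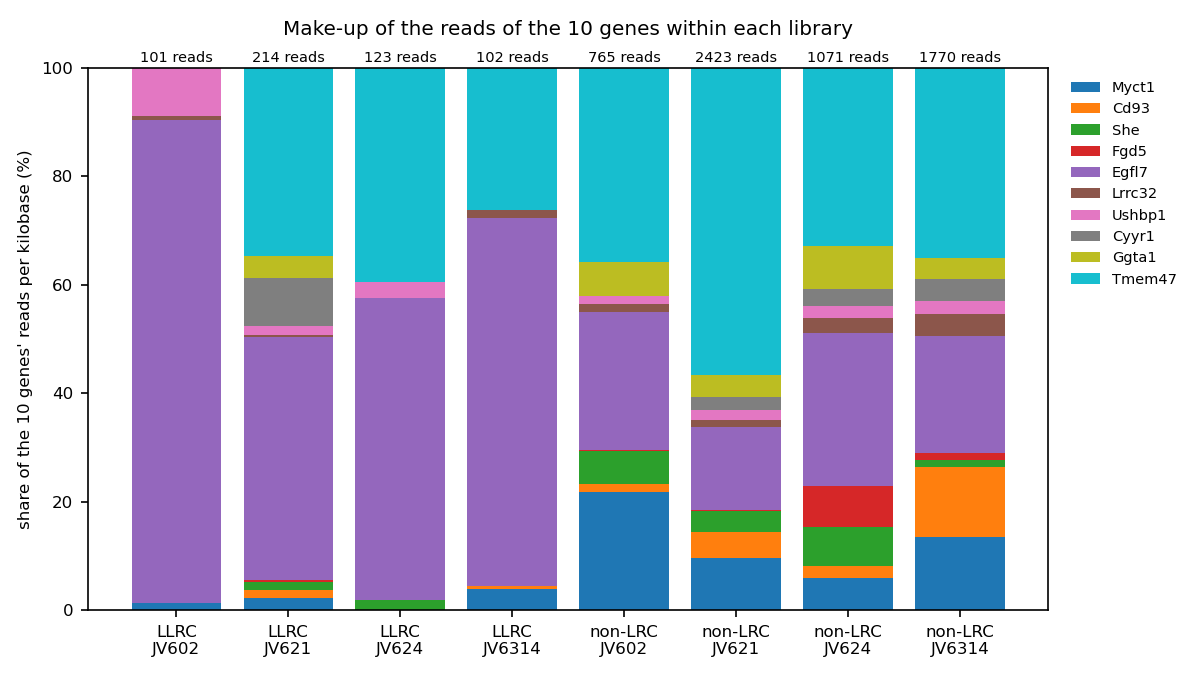
Share of each gene in the reads per kilobase of the 10 genes, for the 4 LLRC and the 4 non-LRC libraries, with the number of reads above each bar. Egfl7 fills 44.8% to 89.0% of the LLRC bars, and Tmem47 is the largest part of each non-LRC bar.

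Within the non-LRC libraries the genes differed in how steady they were between mice. Egfl7 varied 2.92-fold between its lowest and highest library and Ggta1 3.10-fold. She (4.43-fold), Myct1 (5.22-fold), Ushbp1 (5.50-fold), Tmem47 (7.75-fold) and Lrrc32 (8.97-fold) varied more, and Cd93 (27.9-fold) and Fgd5 (142.4-fold) the most among the genes with reads in all 4. The range of Fgd5 is set by 1 count in JV602, below the floor of 3 counts. JV602 was the lowest non-LRC library for 8 of the genes, and JV621 was the highest for 6, JV6314 for 3 and JV624 for 1.

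The endothelial defining markers varied between the same libraries. Their summed level, over 15 genes such as Kdr, Eng and Tek (receptors for VEGF, TGF-beta family ligands and angiopoietins), was 202.0, 852.4, 502.7 and 617.0 CPM in non-LRC cells. Relative to this sum, Ggta1 lay between 2.38% and 3.45% and Egfl7 between 7.40% and 10.8%, ranges of 1.45-fold and 1.46-fold. Ushbp1 ranged 1.97-fold on this scale and Lrrc32 2.94-fold. Tmem47 still ranged 3.24-fold, She 4.45-fold, Myct1 6.02-fold, Cd93 9.81-fold and Fgd5 57.2-fold, and Cyyr1 from 0% to 4.48%. For Fgd5 this again rests on 1 count in JV602. Ggta1 and Egfl7 thus varied least relative to the endothelial sum among the 10 genes. In the LLRC libraries Egfl7 was 17.1% to 38.5% of that sum.

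The summed level of the 10 genes was 95.2, 502.9, 168.0 and 347.1 CPM in the non-LRC and 9.73, 25.2, 18.0 and 11.3 CPM in the LLRC libraries. Endothelial defining markers summed to 21.0 to 53.5 CPM in LLRC libraries and sinusoidal markers, led by Mrc1, Oit3 and Fcgr2b, to 29.4 to 44.4 CPM in LLRC and 176.3 to 791.0 CPM in non-LRC libraries. Endothelial markers were thus read in both sorted fractions, and the sums did not overlap between them. Cholangiocyte markers, led by Spp1, Cdh1 and Tspan8, were read at 114923 to 221504 CPM in LLRC and 66519 to 163217 CPM in non-LRC libraries. Hepatocyte markers (2997 to 3492 CPM against 2199 to 7935 CPM) and macrophage markers (9.94 to 30.4 CPM against 20.5 to 36.2 CPM) overlapped between the groups in these sums. The macrophage sum was mostly Csf1r, however. The other 9 macrophage genes summed to 0 to 1.25 CPM in LLRC and 1.74 to 15.2 CPM in non-LRC libraries, without overlap, and 6 of them, among them Adgre1, Clec4f and C1qb, had no LLRC read. The 11 hepatocyte genes other than Alb gave 732.8 to 1234 CPM in LLRC libraries and 971.4, 701.7, 5179 and 4055 CPM in non-LRC libraries. The cholangiocyte sum was mostly Spp1, and the other 15 genes of that list gave 3695 to 4204 CPM in LLRC and 2662 to 5039 CPM in non-LRC libraries. Stellate and portal fibroblast markers summed to 274.2, 615.6, 903.0 and 703.7 CPM in LLRC and 699.8, 752.3, 2904 and 2419 CPM in non-LRC libraries. The group ranges overlapped, but the non-LRC value was the higher one in each mouse. The part of other cell types in the values of the 10 genes was not tested.

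**Figure D3:**
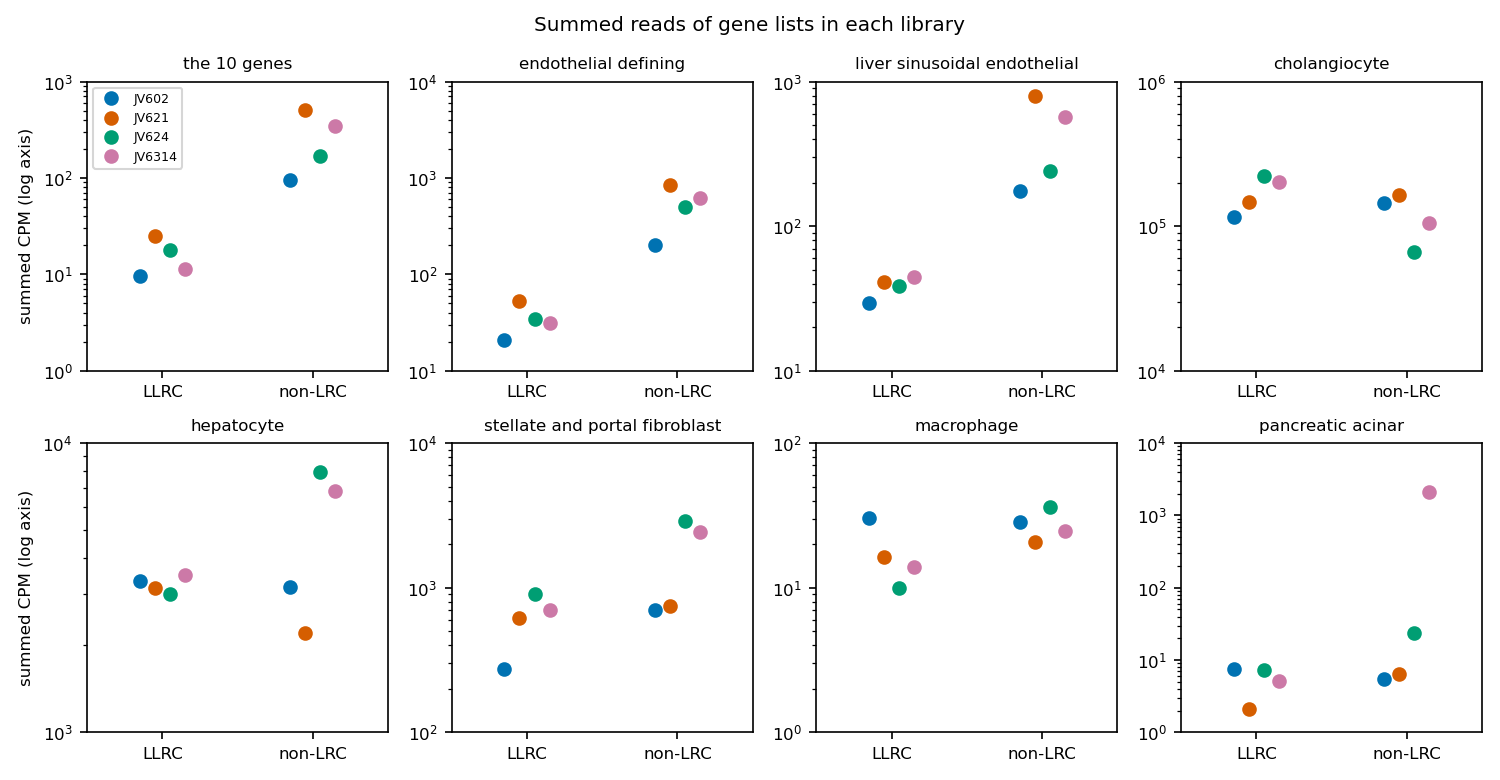
Summed CPM of the 10 genes and of 7 marker lists in each library, on log axes that differ between panels, with mice in colour. The 10 genes and both endothelial lists lie higher in all 4 non-LRC libraries, the sums of the cholangiocyte list (mostly Spp1), the hepatocyte list and the macrophage list (mostly Csf1r) overlap between the groups, and 1 non-LRC library, from JV6314, is set off by its acinar genes (2111 CPM).

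Between LLRC and non-LRC cells no gene reached the adjusted threshold of 0.05 in the quasi-likelihood test of edgeR, with 0% of 13605 genes called lower and 0% higher. At an unadjusted p under 0.05, 3.56% were lower and 1.6% higher in LLRCs. DESeq2 called 172 lower and 49 higher, edgeR's exact test without a filter 96 and 31, and limma 0 and 0. The groups of relatives below are therefore described by their values and by counts at the unadjusted threshold, with adjusted p-values from the quasi-likelihood test.

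Of 49 endothelial markers in 3 lists, 37 were tested, and 0 passed the adjusted threshold. At the unadjusted threshold 30 were lower in LLRCs and 0 higher, with a median log2 fold change of -3.55 against -0.01 over all genes tested. By list these were 11 of 12 tested defining markers, 7 of 7 sinusoidal markers and 12 of 18 other endothelial genes. Of the most abundant genes in the last list, Adgrl4 had a log2 fold change of -5.42 (adjusted p = 0.204) and Ptprb of -3.76 (adjusted p = 0.144, both edgeR), while Palmd was not among the 12, with 181.8 CPM in LLRC and 148.1 CPM in non-LRC cells (log2 fold change 0.30). Among the other cell types, the counts lower and higher were 1 and 1 of 16 cholangiocyte, 7 and 0 of 12 hepatocyte and 2 and 0 of 6 stellate and portal fibroblast genes tested. Few genes of the remaining lists were tested. The counts were 1 lower of 2 pericyte and smooth muscle genes and 1 lower of 1 acinar gene. They were 1 higher of 1 gene of other leukocytes, Ptprc, and 0 of 1 for both macrophages and platelets. These lists were drawn up with earlier results of the data known.

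Paralogs and named partners of the 10 genes were then examined, 38 genes of which 23 were tested. At the unadjusted threshold 7 were lower and 1 higher in LLRCs, beside 3.56% and 1.6% of all genes tested, and the median log2 fold change was -0.20. These counts were 4 and 2 without the non-LRC library of JV624, and the 1 higher gene was lost without LLRC JV602, JV621 or JV6314 or non-LRC JV6314. With the mouse as a block 5 were lower, without Igfbp7 and Emp3, and the 1 higher gene was Itgb6 in place of Itgav. The 7 were 4 of 4 tested relatives of Cd93, 2 of 7 of Lrrc32 and 1 of 4 of Tmem47, with 0 of 4 for Fgd5, 0 of 2 for She and 0 of 1 each for Myct1 and Ushbp1. No difference between these small families was tested, and this list too was drawn up with earlier results of the data known.

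The 4 tested relatives of Cd93 had log2 fold changes between -4.72 and -1.26. Mmrn2, a matrix ligand of Cd93, was read at 1.73, 2.00, 0.293 and 1.54 CPM in the LLRC and 18.8, 54.2, 19.3 and 57.7 CPM in the non-LRC libraries, with no overlap. Its log2 fold change was -4.72 (SE 0.70, adjusted p = 0.081, edgeR quasi-likelihood test). Clec14a, a paralog with the same lectin-like fold that also binds Mmrn2, lay at 2.89 to 9.64 CPM in LLRC and 18.0 to 166.5 CPM in non-LRC libraries, with a log2 fold change of -3.85 (SE 0.70, adjusted p = 0.124 by the same edgeR test), or -3.22 without non-LRC JV621. Thbd, the anticoagulant receptor thrombomodulin, lies 28.5 kb from Cd93 on chromosome 2 and had a log2 fold change of -2.63 (SE 0.58, adjusted p = 0.216 in edgeR). Igfbp7, a secreted ligand of Cd93, had 51.5, 20.6, 33.8 and 21.5 CPM in LLRC and 36.1, 94.6, 108.7 and 66.7 CPM in non-LRC libraries, so that the groups overlapped and the LLRC value was the higher one in JV602. Its log2 fold change was -1.26 (adjusted p = 0.771 in edgeR). Cd248, the paralog of stromal cells, had 3 counts in LLRC and 46 in non-LRC libraries and was not tested. DESeq2 and the exact test both called Mmrn2, Clec14a and Thbd lower.

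The relatives of Fgd5 differed in level. Fgd1 was near absent from LLRCs, with 5, 5, 2 and 0 counts, and had 2, 0, 0 and 15 in non-LRC cells. Fgd2 had 58 LLRC and 16 non-LRC counts, and Fgd3 means of 1.87 and 1.74 CPM. Fgd4, a paralog, had means of 60.8 and 69.8 CPM in LLRC and non-LRC cells and a log2 fold change of -0.20 (SE 0.39), and Fgd6 of 7.54 and 5.43 CPM (0.46, SE 0.97). Cdc42, the GTPase that Fgd5 activates, lay at 757.6 and 722.4 CPM (0.07, SE 0.27). In the SHB adaptor family, Shb had 8.78 and 8.88 CPM (log2 fold change -0.02, SE 0.76, or 0.93 without non-LRC JV6314) beside the near absence of She in LLRCs, and Shd had 14 LLRC counts, 13 of them in JV621, against 67 non-LRC counts. Shf of that family had 11 LLRC and 0 non-LRC counts and was not tested. Ush1c, a partner of Ushbp1, had 35 LLRC and 22 non-LRC counts and was not tested either. Myc (13.7 and 15.7 CPM, -0.20, SE 0.62) and Mcc, a relative of Ushbp1 (64.1 and 60.6 CPM, 0.08, SE 0.46, or 0.73 without non-LRC JV621) had log2 fold changes near 0 with all libraries. A missed threshold with these standard errors does not show equal levels.

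The genes of TGF-beta docking around Lrrc32 were mixed. Nrros, its paralog that docks latent TGF-beta in macrophages, had LLRC counts of 0, 8, 0 and 0 and non-LRC counts of 11, 32, 27 and 58, with a log2 fold change of -4.55 (SE 1.40, adjusted p = 0.567 in edgeR), and it had no LLRC read without JV621. Of the ligands, Tgfb1 had 3 counts over the LLRC and 0 over the non-LRC libraries. Tgfb2 had means of 35.2 and 77.4 CPM in LLRC and non-LRC cells (log2 fold change -1.14, SE 0.49, adjusted p = 0.951 in edgeR), and Tgfb3 of 4.78 and 10.6 CPM (-1.15, SE 0.51). Ltbp1, a further partner, had means of 10.1 and 24.8 CPM (-1.29, SE 0.81, or -2.05 without LLRC JV6314). Itgav, the integrin chain that takes part in freeing latent TGF-beta, was the relative with the opposite sign at the unadjusted threshold, with 72.5 to 134.7 CPM in LLRC and 21.8 to 70.1 CPM in non-LRC libraries and no overlap (log2 fold change 0.95, SE 0.39, adjusted p = 0.917 in edgeR). Its partner chains Itgb8 (1.17, SE 0.92) and Itgb6 (2.03, SE 1.58) had the same sign with wider errors. Itgb8 was at 1.85 without non-LRC JV602 and 2.26 with the mouse as a block. All 50 non-LRC counts of Itgb6 came from JV624, and its value without that library, 8.94, depends on the prior count. The value was 1.33 without LLRC JV624 and 5.00 with the block.

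Among the relatives of Tmem47, Emp3 had 1.54, 2.59, 2.19 and 1.21 CPM in LLRC and 0.498, 2.49, 13.3 and 22.7 CPM in non-LRC libraries, so that the LLRC value was the higher one in JV602 and JV621. Its log2 fold change was -2.36 (SE 1.00, adjusted p = 0.937 in edgeR), or -1.52 without non-LRC JV6314 and -1.35 with the mouse as a block. Perp, a desmosomal protein of epithelium, had 169.1 and 84.6 CPM (1.00, SE 0.52), Emp2 99.6 and 86.2 CPM (0.21, SE 0.29), and Pmp22 18.0 and 27.0 CPM (-0.59, SE 1.12). The sign of Pmp22 turned without non-LRC JV624 (0.07) and with the mouse as a block (0.33). Emp1 had 34 LLRC and 2 non-LRC counts and was not tested. The family of Tmem47 therefore held values on both sides of 0. Of the relatives of Egfl7, Lox had 1 LLRC and 33 non-LRC counts, 32 of them in JV624, and Egfl8 had 1 LLRC and 4 non-LRC counts. The microRNA genes Mir126a and Mir126b were listed at 0 in all libraries, but 100% of their bases lie in Egfl7 exons. The counting leaves reads there unassigned, so these 0 values do not measure the microRNAs. The Ggta1 family was almost unread, with Gbgt1 and Glt6d1 at 0, Abo at 3 LLRC and 1 non-LRC counts and A3galt2 at 21 LLRC counts, 20 of them in JV602, and 0 non-LRC counts.

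**Figure D4:**
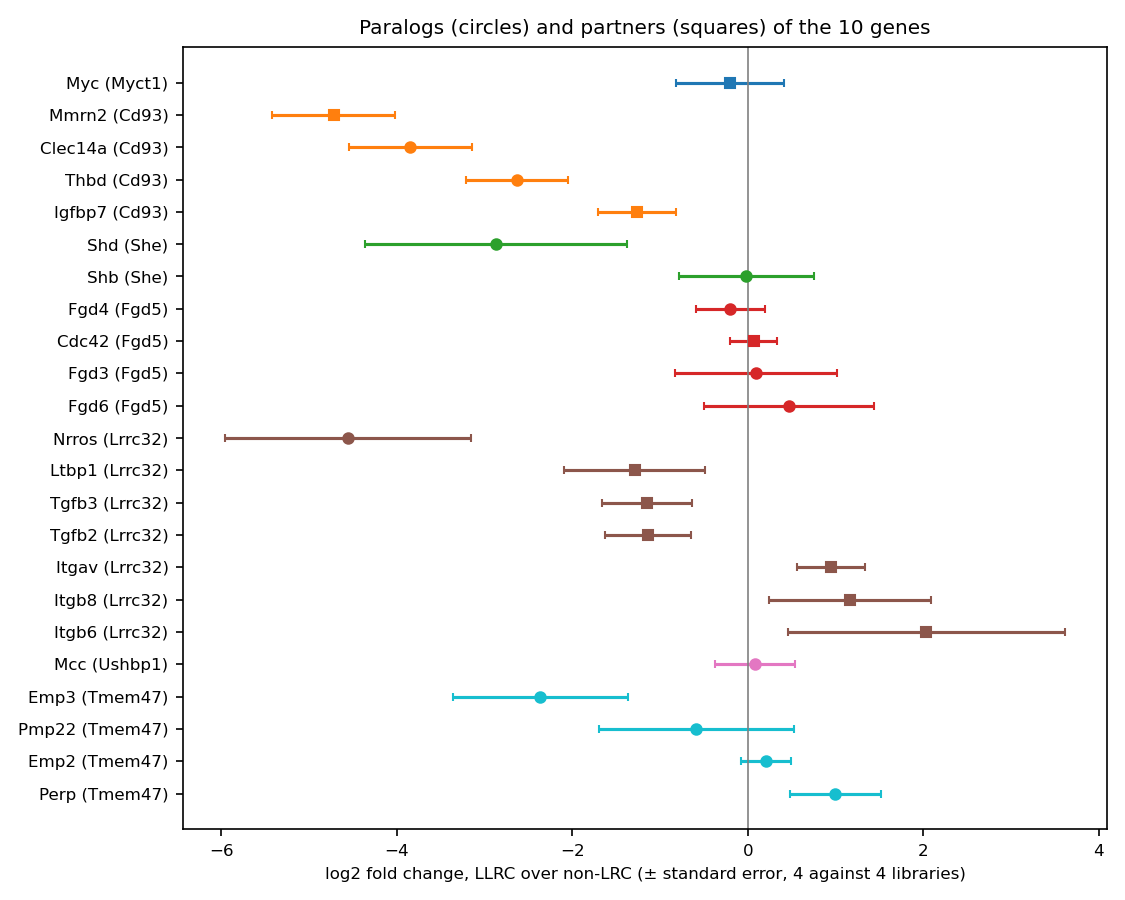
Log2 fold change of LLRC over non-LRC for the 23 paralogs and partners tested, with a standard error derived from the edgeR F statistic (4 against 4 libraries). Each is named with the gene it belongs to. The 4 relatives of Cd93 lie left of 0, those of Fgd5 lie around 0, and those of Lrrc32 and Tmem47 lie on both sides.

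The genes whose levels were most like the mean of the 10 over the 8 libraries were Lrat, Gja4, Flt1, Adcy4 and Clec14a, with Pearson correlations of 0.995, 0.991, 0.989, 0.988 and 0.984 among 13596 genes ranked. Lrat, which makes retinyl esters and stands in the stellate list, had LLRC counts of 47, 75, 41 and 38 and non-LRC counts of 161, 252, 251 and 376. Gja4, a connexin of arterial endothelium, had LLRC counts of 0, 2, 0 and 0 and non-LRC counts of 27, 167, 101 and 83. Flt1, a VEGF receptor, had 10, 37, 19 and 17 against 108, 298, 239 and 222 counts. Each of these genes separated the same groups of libraries on which the 10 genes were chosen, and the 8 points of each correlation are 4 low and 4 high libraries. Over the same 8 libraries each of the 10 correlated with the mean of the others at 0.817 (Cyyr1) to 0.990 (Egfl7).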

How the data were processed

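RNA-seq libraries of 4 LLRC and 4 non-LRC samples, paired by mouse, were used. The deposited table holds raw counts, which the authors made with HTSeq (union mode, strand ignored, exons of the Ensembl annotation of GRCm38.p4). The aligner is not given in the sources used here. A deposited table of the authors' own edgeR 3.2.4 comparison, with fold changes and p-values, was not used. Rows without a symbol (512 of 46603) were kept in the fit.

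Counts were filtered with filterByExpr, scaled by TMM (0.816 to 1.23) and tested with edgeR 4.0.16 (quasi-likelihood, group as the term, Benjamini-Hochberg, threshold 0.05) in R 4.3.3, after the code had been tested on simulated data. The methods of the study name edgeR but no test. The SE of a log2 fold change here was its absolute value divided by the square root of the quasi-likelihood F statistic. Exon lengths, coordinates and overlaps are from GENCODE M21. Pooled ratios have exact (Clopper-Pearson) 95% intervals for counting error only. Log2 CPM for correlations used a prior count of 2. Reads in exons of more than 1 gene are not counted in union mode, which can lower Egfl7 and Tmem47 and fixes Mir126a and Mir126b at 0.

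The text names the 10 genes, their paralogs and partners, the 3 most abundant genes of a marker list where listed, and the 5 genes most like the 10. The genes, lists and rules were chosen with earlier results of these data known. The labels name the same animal for both libraries of a mouse, so the numbers pair the libraries, although in JV621 Xist had 120 LLRC and 0 non-LRC counts, which the labels do not account for. Their deviations from group means correlated at 0.096, 0.074, 0.003 and 0.171. Alternatives were other filters, scalings and tests (DESeq2 1.42.0, limma 3.58.1), a block for the mouse, and leaving out 1 library at a time.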

Additional observations from a re-analysis of the deposited data

Results flagged for a closer look

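In 7 of 66 groups of 4 libraries examined, 1 library lay far from the other 3 by Dixon's test. Chance gives about 1 in 20 for values that vary freely, but in 5 of the 7 (Cyyr1, Ggta1, Fgd5, Nrros and Itgb6) the other 3 libraries were at 0, so that any read there is set apart and that rate does not apply. Of the 7, 5 were the LLRC library of JV621. It held 4.58 CPM of Cyyr1 (39 counts), 1.06 CPM of Ggta1 (9 counts), 0.118 CPM of Fgd5 (1 count), 1.53 CPM of Shd (13 counts) and 0.940 CPM of Nrros (8 counts). The same library alone held Xist, at 120 counts. Its summed endothelial defining markers were 53.5 CPM, the highest of the LLRC libraries, and the part of other cells in these values was not tested. The LLRC library of JV624 was low for Fgd3, at 0.731 CPM (5 counts). The non-LRC library of JV624 held 7.84 CPM of Itgb6 (50 counts).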

How the results depend on the processing

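Over 17 alternative settings the log2 fold changes of the 9 genes fitted gave 153 values, of which 0 changed sign and 13 moved by more than 1.5-fold, and the range was -9.83 to -1.95. Without LLRC JV621 the values of Cyyr1, Ggta1, Cd93 and She went from -3.76, -5.67, -7.19 and -5.86 to -9.83, -9.68, -8.97 and -6.49, and for Cyyr1 and Ggta1, then at 0 in all LLRC libraries, they depend on the prior count. Without non-LRC JV621 Tmem47 went from -4.64 to -3.79, and without non-LRC JV6314 Cd93 was -6.30 and Lrrc32 -5.21 instead of -5.80. The others that moved were Cyyr1 (-5.83) and Ggta1 (-6.97) with the mouse as a block, and 4 genes in limma. The separation of the groups held for 9 of the 10 genes under each scaling, and for 9 to 10 with 1 library left out, the 10 without non-LRC JV602. Calls over all genes depended on the test. Lower and higher calls were 0 and 0 in the quasi-likelihood test, 10 and 1 without a filter, 172 and 49 in DESeq2, and 96 and 31 in the exact test, and the cause was not tested. Relatives called lower were 1 (Mmrn2) without a filter and 3 in DESeq2 and in the exact test. Endothelial list genes called lower were 3, 25 and 23 in these settings. With 1 library left out, calls lower over all genes were 0 to 6 and in the endothelial lists 0 to 3, the 6 and 3 without non-LRC JV602. With the mouse as a replicate block 0 genes were called lower and 0 higher, so the pairing changed no call at the adjusted threshold. At an unadjusted p under 0.05 it gave 335 lower and 234 higher, and for the relatives 5 lower, against 7, and 1 higher. The median of all genes was 0.10 in limma and 0.14 with the block, against -0.01. LLRC values of 0 to 3 counts lie at or under the floor, so differences among the near-zero LLRC values were not detectable.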
